A study of Homo sapiens with 6 samples.

Results

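The TAM receptors and their ligands were examined in HCT116 colon carcinoma cells treated with oxaliplatin. The group held 5 genes, the receptors AXL, TYRO3 and MERTK and the ligands GAS6 and PROS1, taken by gene symbol out of 27942 genes in the count table. All 5 members were among the 13727 genes that passed the filter on low counts and were tested. Polyadenylated RNA was sequenced from 3 libraries of untreated cells (NT) and 3 of cells exposed to 0.5 µM oxaliplatin (OXA), a platinum drug that forms DNA adducts, for 24 h. HCT116 is a single established colon cancer line with wild-type p53, and the labels give no other alteration in either group. No label says that the replicates came from separate cultures, so the p-values measure the spread between these libraries, which may be technical.

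TYRO3, AXL and MERTK are receptor tyrosine kinases with immunoglobulin-like and fibronectin type III domains outside the cell and a kinase domain inside. Their ligands GAS6 and protein S, the product of PROS1, hold a Gla domain that becomes carboxylated in a vitamin K-dependent step and binds phosphatidylserine on dying cells and vesicles, so that the ligand bridges that lipid and the receptor. GAS6 binds all of the TAM receptors, whereas protein S acts on TYRO3 and MERTK. In macrophages the receptors serve the uptake of apoptotic cells and dampen inflammation, and in carcinomas AXL is known for its links to invasion and drug tolerance. AXL is also a gene commonly listed among the targets of YAP and TAZ, the Hippo pathway co-activators that the study addressed.

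The libraries held between 32979521 and 40967880 counts. CDKN1A, the p53-induced cell cycle inhibitor, had a log2 change of 2.93 (OXA over NT, adjusted p = 0.000445 by edgeR) and MDM2, the p53 ubiquitin ligase, one of 2.22 (adjusted p = 0.000445 by edgeR). NT library 1 stood apart, with a chi-square per gene of 75.7 and 83.1 against the other NT libraries, where the other pairs within a group had 19.2 to 29.6, so the members' values without it are given beside their results. Of 8 colon epithelial markers, 7 were above 3 counts in every library and CDX1 was at 0, with a summed level of 77719 to 111629 normalized counts in NT and 126333 to 149337 in OXA. That sum was mostly the keratins KRT8, KRT18 and KRT19, whose means were higher in OXA but which were not called without the block (adjusted p = 0.218, 0.115 and 0.0616 by edgeR), while EPCAM had 9963 ± 1012 and 9689 ± 802 normalized counts. Of 8 markers of macrophages and other leukocytes, 3 were above 3 counts in every library, and the sum was 174 to 218 normalized counts in NT and 216 to 255 in OXA. The fibroblast and endothelial markers summed to 140.0 to 321 in NT and 205 to 315 in OXA, with 3 of 7 above 3 counts in every library. In these bulk libraries, fewer cells of a type and less RNA per cell cannot be told apart.

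The results turn on AXL and on the GAS6 locus, so the 250 bases before their annotated starts are shown, from RefSeq on GRCh38.p14. Matches to 3 motifs on either strand are in capitals: GGAATG for TEAD factors, TGANTCA for AP-1 and GGGCGG for SP1. Over 35116 RefSeq windows of 300 bases, from 250 before a start to 50 after, 14% held the TEAD letters, 7.71% the AP-1 letters and 45% the SP1 letters. The outer AXL window is chr19:41218973-41219222 on the plus strand, the inner AXL window, before a start within an intron of the longer gene model, is chr19:41226505-41226754 on the plus strand, and the GAS6 window is chr13:113864077-113864326, read on the minus strand.
AXL outer start: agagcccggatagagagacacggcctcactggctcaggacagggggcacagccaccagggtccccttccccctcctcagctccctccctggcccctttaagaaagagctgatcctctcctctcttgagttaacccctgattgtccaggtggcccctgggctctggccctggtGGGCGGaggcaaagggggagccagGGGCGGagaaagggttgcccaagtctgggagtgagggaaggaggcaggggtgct
AXL inner start: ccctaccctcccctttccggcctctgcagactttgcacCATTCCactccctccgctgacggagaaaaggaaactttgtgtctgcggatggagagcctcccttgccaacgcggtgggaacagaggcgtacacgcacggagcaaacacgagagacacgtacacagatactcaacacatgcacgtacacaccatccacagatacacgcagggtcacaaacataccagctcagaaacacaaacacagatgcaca
GAS6 start: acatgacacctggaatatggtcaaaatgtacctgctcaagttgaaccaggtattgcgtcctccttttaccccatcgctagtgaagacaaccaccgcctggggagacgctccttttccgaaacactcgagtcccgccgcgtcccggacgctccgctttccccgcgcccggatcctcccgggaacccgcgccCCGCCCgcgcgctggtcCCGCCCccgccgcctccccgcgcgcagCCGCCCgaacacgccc
The outer AXL window holds SP1 letters at -78 and -54, with the start base counted as 0. The inner window holds TEAD letters at -212 and neither of the other motifs. The GAS6 window holds SP1 letters at -60, -43 and -16, and it faces the start of GAS6-DT, a long noncoding RNA gene on the other strand whose RefSeq start is 101 bases from that of GAS6. A match describes letters and not a bound site, and none of the windows was measured in these libraries.

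AXL rose 1.89-fold and was the only one of the 5 members called higher by edgeR without a block, where 2.78% of all genes tested were. The gene (ENSG00000167601) lies on the plus strand at chr19:41219223-41261766 of GRCh38 and has 20 exons in its canonical transcript. Its raw counts were 1774, 2129 and 2432 in NT libraries 1 to 3 and 3581, 3595 and 4515 in OXA libraries 1 to 3. After TMM normalization, which scales each library to a common size, these were 1813, 2213 and 2219 against 3875, 3920 and 4023. Every OXA library lay far above every NT library, and the OXA libraries differed little among themselves. The means were 2082 ± 232 and 3939 ± 76.0 normalized counts (SD, n = 3 each), a log2 change of 0.92 (standard error, SE, 0.10, adjusted p = 0.00489 by the edgeR quasi-likelihood test) and a fold change with a 95% interval of 1.60 to 2.23. Without NT library 1 the AXL log2 change was 0.83 (adjusted p = 0.000959 by edgeR), and AXL passed in 6 of 6 fits that left out a library. Among all genes tested, 300 had a larger log2 change than AXL. An antisense long noncoding RNA, ENSG00000269652, shares 67 exonic bases with AXL and had no row in the count table.

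None of the 5 members was called lower by edgeR, at the adjusted or the unadjusted threshold, where 2.29% of all genes tested were at the adjusted one. DESeq2 called AXL alone of the members (adjusted p = 0.108 for GAS6). Over the whole table DESeq2 called 604 genes higher and 571 lower, where edgeR without a block called 381 and 315. MERTK and GAS6 fell short of an unadjusted edgeR p under 0.05, at 0.0529 and 0.0554, a limit that 10.7% of all genes tested passed as higher and 11.1% as lower. OXA lay above NT in every library for 3 of the 5, AXL, MERTK and GAS6, and below NT in every library for 0 of 5. The same held for 14.5% and 14.4% of all genes tested. With replicate number as a blocking factor (the block), 2 of 5 were called higher, AXL and GAS6, and 0 lower, where 12.1% and 10.9% of all genes tested were called. Over 5 genes these counts are a description.

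**Figure D1:**
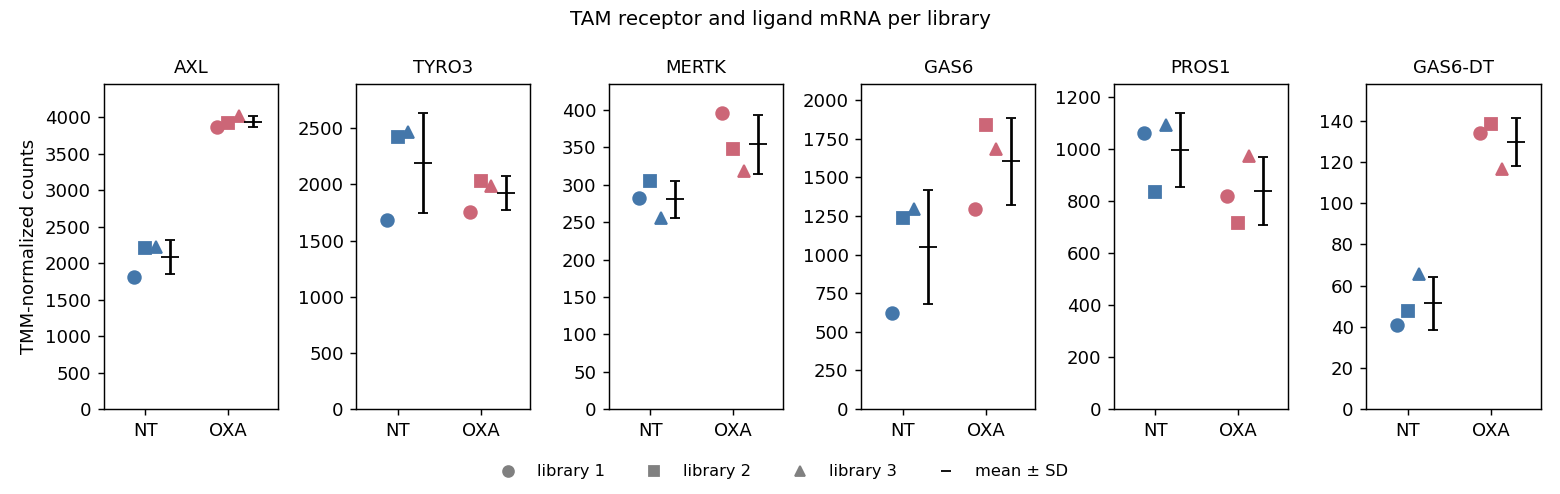
TMM-normalized counts of the 5 members and of GAS6-DT in each NT (blue) and OXA (red) library, with marker shapes for the library number and bars for mean ± SD (n = 3); each panel has its own axis from 0. AXL sits between 1813 and 2219 in NT and between 3875 and 4023 in OXA, whereas the NT and OXA points of TYRO3 and PROS1 overlap.

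TYRO3, the TAM receptor best known from the nervous system, did not pass the test. It lies on the plus strand at chr15:41557675-41583589 (ENSG00000092445, 19 exons). Its normalized counts were 1682, 2426 and 2470 in NT libraries 1 to 3 and 1753, 2027 and 1990 in OXA libraries 1 to 3, so that NT library 1 lay under every other library and the groups overlapped. The means were 2193 ± 443 and 1923 ± 149, and the log2 change was -0.19 (SE 0.16, adjusted p = 0.543 by edgeR), with a 95% interval of the fold change of 0.682 to 1.13. Without NT library 1 the TYRO3 estimate was -0.35 (adjusted p = 0.0604 by edgeR). TYRO3 shares 4 of its 7933 windows of 100 bases (0.0504%) with TYRO3P, a processed pseudogene at chr15:76258986-76261690 that had no row in the count table.

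MERTK, the receptor through which macrophages and retinal pigment epithelium engulf cells and cell debris, had the fewest counts of the 5. Its gene is at chr2:111898607-112029561 on the plus strand (ENSG00000153208, 19 exons). The normalized counts were 282, 304 and 256 in NT libraries 1 to 3 and 396, 348 and 318 in OXA libraries 1 to 3. The lowest OXA library lay just above the highest NT library, so the groups did not overlap. With means of 281 ± 24.5 and 354 ± 39.3 the MERTK log2 change was 0.33 (SE 0.15, adjusted p = 0.239 by edgeR) and the 95% interval of the fold change ran from 0.996 to 1.60. The authors' own normalized values multiply its raw counts by 1.02, 1.02 and 0.795 in NT libraries 1 to 3 and by 1.21, 1.3 and 0.851 in OXA libraries 1 to 3, and with these gene-specific factors the estimate was 0.53 (adjusted p = 0.203 by edgeR). CSF1R, the macrophage growth factor receptor, had 5 to 12 raw counts per library. The summed leukocyte markers overlapped between the groups and were nearly all CD68, a lysosomal protein gene (183 ± 25.9 normalized counts in NT, 212 ± 15.5 in OXA, adjusted p = 0.523 by edgeR), while PTPRC, TYROBP and AIF1 were at 0 to 2 raw counts. The MERTK log2 change without NT library 1 was 0.34 (adjusted p = 0.221 by edgeR).

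GAS6, the ligand of all TAM receptors, had a larger estimate than MERTK but a wider spread. It is encoded on the minus strand at chr13:113820549-113864076 (ENSG00000183087, 15 exons). Its raw counts were 609, 1188 and 1415 in NT libraries 1 to 3 and 1194, 1688 and 1886 in OXA libraries 1 to 3. The normalized counts were 623, 1235 and 1291 in NT and 1292, 1840.4 and 1680.4 in OXA, so NT library 1 was well below all others and the highest NT library all but touched the lowest OXA library. The GAS6 means were 1049.5 ± 371 and 1604 ± 282, the log2 change was 0.61 (SE 0.27, adjusted p = 0.244 by edgeR) and the 95% interval of the fold change was 0.987 to 2.36.

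Whether GAS6 is called depended on the pairing of libraries. OXA exceeded the NT library of the same number by 1.05, 0.58 and 0.38 on the log2 scale for libraries 1, 2 and 3, and with replicate number as a blocking factor the GAS6 log2 change was 0.66 (adjusted p = 0.0212 by edgeR). Without NT library 1 the unblocked estimate was 0.35 (adjusted p = 0.176 by edgeR), and in none of the 6 unblocked fits that left out a library was GAS6 called. GAS6-AS1, an antisense long noncoding RNA that shares 421 exonic bases with GAS6, had no row in the count table. Since the strand setting of the counting is not given in the sources used here, reads of the pair cannot be told apart.

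GAS6-DT (ENSG00000272695), which has no known protein product and is transcribed away from GAS6, rose in OXA. In GENCODE 44 it spans chr13:113864112-113866834 on the plus strand and starts 36 bases from the start of GAS6. Its raw counts were 40, 46 and 72 in NT libraries 1 to 3 and 124, 127 and 131 in OXA libraries 1 to 3, and the groups were far apart. The GAS6-DT means were 51.5 ± 12.8 and 129.8 ± 11.5 normalized counts, with a fold change of 2.51 (95% interval 1.74 to 3.61, log2 change 1.33, adjusted p = 0.0210 by edgeR). The log2 change stayed between 1.19 and 1.51 when a library was left out, but the adjusted p was above the threshold without NT library 2 (0.0697) and without OXA library 1 (0.109), 2 (0.0993) or 3 (0.0763). The RefSeq promoter windows of GAS6 and GAS6-DT share 200 bases.

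PROS1, which encodes protein S, a plasma anticoagulant cofactor as well as a TAM ligand, did not pass the test. The gene is on the minus strand at chr3:93873051-93980003 (ENSG00000184500, 15 exons). Its normalized counts were 1061, 832 and 1091 in NT libraries 1 to 3 and 820.1, 716 and 974 in OXA libraries 1 to 3. The groups overlapped, although each OXA library was below the NT library of its own number, with log2 differences of -0.37, -0.22 and -0.16. The PROS1 means were 995 ± 141 and 837 ± 129.6, the log2 change was -0.25 (SE 0.16, adjusted p = 0.412 by edgeR), and the 95% interval of the fold change was 0.654 to 1.08. PROS1 shares 47 of 3273 windows of 100 bases (1.44%) with the pseudogene PROS2P at chr3:90202316-90257415, so a small part of the PROS1 counts is uncertain. PROS2P had no row in the count table. The PROS1 log2 change without NT library 1 was -0.20 (adjusted p = 0.471 by edgeR).

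**Figure D2:**
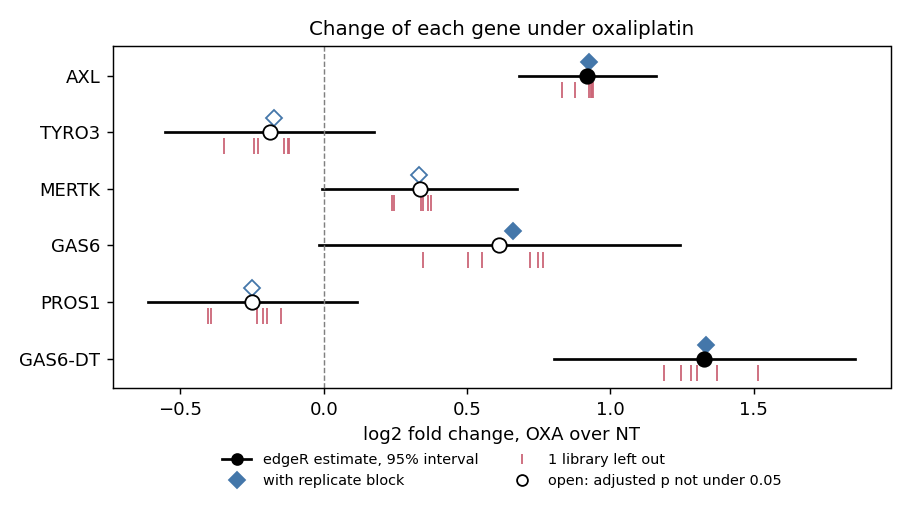
Log2 change (OXA over NT) of the 5 members and GAS6-DT, with the edgeR estimate and its 95% interval (black), the estimate with the replicate block (blue diamond) and the estimates with 1 library left out (red ticks); filled symbols have an adjusted p under 0.05. The interval of AXL, 0.68 to 1.16, lies wholly above 0, while those of TYRO3, MERTK, GAS6 and PROS1 include 0.

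A call for AXL and none for the others does not show that they differ, so the log2 ratio of AXL to each member was compared between the groups. The AXL to TYRO3 ratio went from -0.059 in NT to 1.04 in OXA, a difference of 1.10 (SE 0.10). The AXL to PROS1 ratio went from 1.07 to 2.25, a difference of 1.18 (SE 0.22), and the AXL to MERTK ratio from 2.89 to 3.48, a difference of 0.59 (SE 0.17). For each of these 3 ratios every OXA library was above every NT library, and the two-sided exact permutation test gave p = 0.1, the smallest it can give with 3 libraries a group (0.133 after Benjamini-Hochberg adjustment over 4 ratios). The AXL to GAS6 ratio was 1.05 in NT and 1.31 in OXA, a difference of 0.26 (SE 0.28, exact permutation p = 0.4, adjusted 0.4), which was within the spread between libraries. It ranged from 0.12, without NT library 3 or OXA library 1, to 0.50 without NT library 1 (SE 0.15, exact permutation p = 0.2). Without NT library 1 the differences were 1.18 for TYRO3, 0.49 for MERTK and 1.03 for PROS1.

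Per kilobase of exon, AXL was already the most abundant of the receptors in untreated cells. Its level was 405 ± 45.3 normalized counts per kilobase in NT and 767 ± 14.8 in OXA. TYRO3 had 204 ± 41.1 and 179 ± 13.8, and MERTK 67.9 ± 5.93 and 85.6 ± 9.51. The median tested gene had 158 in NT, so AXL lay above it and MERTK below. Of the ligands, PROS1 had 189 ± 26.8 and 159 ± 24.6 counts per kilobase and GAS6 174 ± 61.7 and 267 ± 46.9. In NT, TYRO3, PROS1 and GAS6 did not differ beyond their spread. In OXA, AXL was followed by GAS6 by either length, with GAS6 at 606 ± 107 by its longest transcript, whereas TYRO3 and PROS1 changed places with the length used (239 ± 18.5 and 244 ± 37.7 by the longest transcript) and differed by less than their spread.

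AXL made up 61.2%, 59.0% and 59.8% of the TAM receptor counts per kilobase in NT libraries 1 to 3 and 74.5%, 73.7% and 75.0% in OXA libraries 1 to 3. The means were 60.0% ± 1.07 and 74.4% ± 0.634, and the groups were far apart although the AXL counts themselves varied more between NT libraries. TYRO3 took 29.9% ± 2.49 in NT and 17.3% ± 1.10 in OXA. MERTK held 10.2% ± 1.64 and 8.31% ± 1.06, with overlapping groups. These shares are not independent of each other or of the AXL counts, and no test was made of them. The NT shares without library 1 were 59.4% for AXL, 31.3% for TYRO3 and 9.32% for MERTK.

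**Figure D3:**
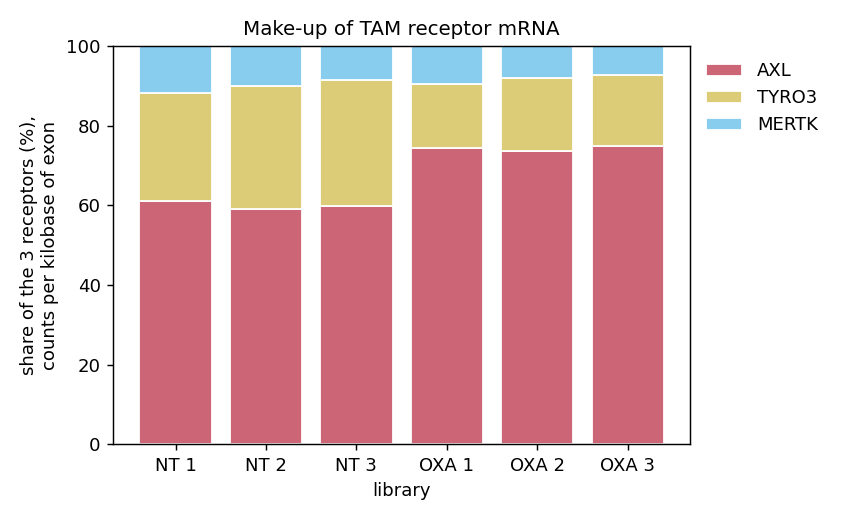
Share of AXL, TYRO3 and MERTK in the summed normalized counts per kilobase of exon of the 3 receptors, in percent, for each of the 6 libraries. AXL takes 59.0% to 61.2% in NT and 73.7% to 75.0% in OXA, and TYRO3 27.0% to 31.7% in NT and 16.1% to 18.2% in OXA.

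Against other receptor tyrosine kinases, AXL was among the 2 called higher by edgeR without the block, where 2.78% of all genes tested were. Of 58 such genes listed, 57 were in the table and 37 passed the filter on low counts. EPHA2, an ephrin receptor of epithelia, rose 2.08-fold, from 3492 ± 943 to 7253 ± 1046 normalized counts (log2 change 1.05, SE 0.20, adjusted p = 0.0298 by edgeR), ahead of AXL in size of change. The EPHA2 call was lost without NT library 3 or any of the OXA libraries, at adjusted p up to 0.118. None of the 37 was called lower by edgeR, where 2.29% of all genes tested were. At an unadjusted p under 0.05 there were 2 higher and 7 lower, where 10.7% and 11.1% of all genes tested were. DESeq2 called 4 of the 37 in either direction, where it called 604 genes higher and 571 lower over the whole table. The block called 4 of 37 lower (INSR, ERBB3, STYK1 and IGF1R), close to the 10.9% of all genes tested. The median log2 change of the 37 was -0.14, with 14 above 0 and 23 below, where that of all genes tested was 0.023. EGFR and MET, drug targets in epithelial tumors, had log2 changes of 0.14 (adjusted p = 0.363 by edgeR) and 0.0046 (adjusted p = 0.986 by edgeR).

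MERTK ranked 4 and TYRO3 ranked 21 of the 37 by log2 change. By level per kilobase AXL ranked 6 in NT and 4 in OXA, TYRO3 12 and 14, and MERTK 24 and 22. By the longest transcript these ranks were 9 and 5, 13 and 14, and 25 and 23. MET was the highest of the 37, at 2301 counts per kilobase in NT. AXL in NT was close to EPHB4, at 398 ± 92.2, from which it did not differ beyond the spread between libraries.

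**Figure D4:**
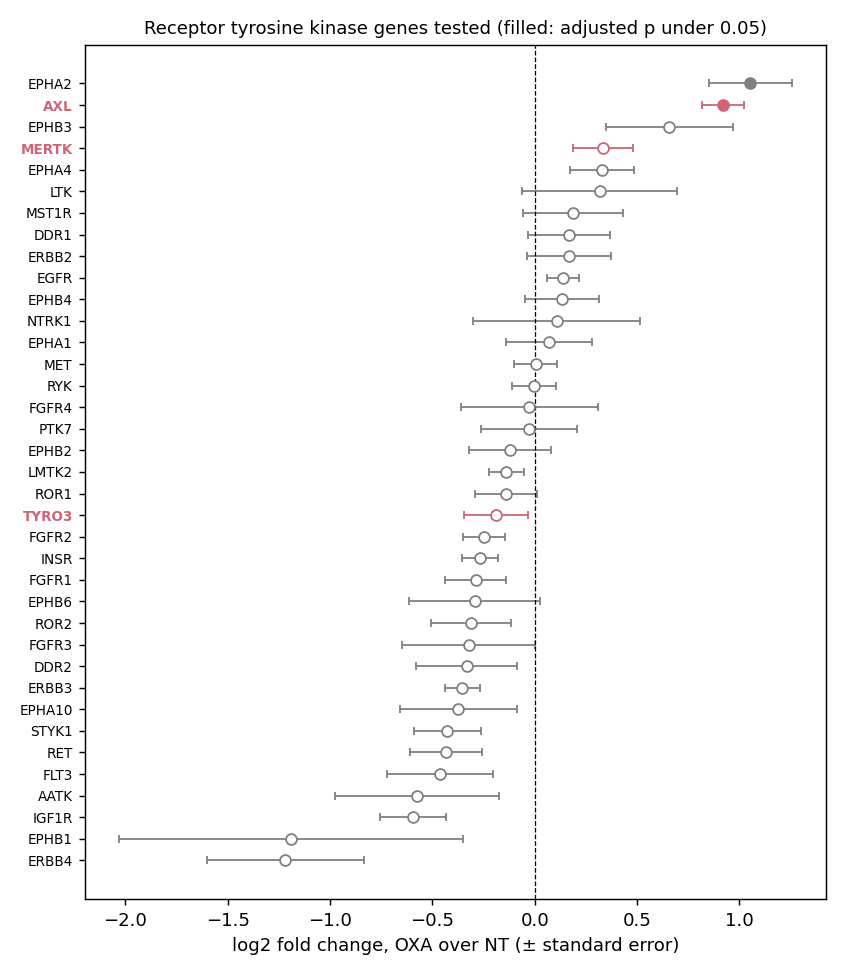
Log2 change (OXA over NT) with its standard error for the 37 receptor tyrosine kinase genes tested, ordered by size, with the TAM receptors in red and filled points for an adjusted p under 0.05. AXL at 0.92 and EPHA2 at 1.05 are the filled points, MERTK at 0.33 is near the top and TYRO3 at -0.19 lies in the middle.

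The signaling genes that the TAM receptors use were measured but not called without the block. Of 25 genes for adaptors and downstream enzymes, 0 had an edgeR adjusted p under 0.05, while at an unadjusted p under 0.05 there were 2 higher and 1 lower and DESeq2 called 2. Their median log2 change was 0.0038, between -0.26 and 0.62. GRB2, an adaptor that docks on the activated receptor, had 8666 ± 542 and 9282 ± 285 normalized counts (log2 change 0.099, adjusted p = 0.556 by edgeR). With the block, SHC1, an adaptor, SRC, a cytoplasmic tyrosine kinase, and VAV1, a guanine nucleotide exchange factor, were called higher, at block-adjusted p of 0.0181, 0.0407 and 0.0235, and PIK3CA, a PI3-kinase catalytic subunit, was called lower, at 0.0419. Without NT library 1, 1 gene of this list was called, where 623 of all genes tested were called higher and 571 lower. For this list and those below, the background is that of all genes tested, of which 2.78% were called higher and 2.29% lower. At an unadjusted p under 0.05 these shares were 10.7% and 11.1%, and with the block 12.1% and 10.9%. For the DESeq2 counts, the background is 604 genes called higher and 571 lower over the whole table.

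AXL and MERTK can be cut from the cell surface by ADAM proteases and their stubs by gamma-secretase. Of 12 genes of this step 0 were called either way, with 0 at an unadjusted p under 0.05 and 0 called by DESeq2, and the median log2 change was 0.036. The level of ADAM10 was 6373 ± 471 normalized counts in NT against 6050.4 ± 464 in OXA (adjusted p = 0.714 by edgeR), and ADAM17 had 2600.0 ± 174 and 2615 ± 139 (adjusted p = 0.973 by edgeR). With the block, TIMP3, an inhibitor of ADAM17, and APH1A, a gamma-secretase subunit, were called lower, at block-adjusted p of 0.0398 and 0.0291.

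GAS6 and protein S need vitamin K-dependent carboxylation. Of 19 genes of the vitamin K cycle and of Gla proteins, 11 passed the filter and 0 were called, with 2 higher and 1 lower at an unadjusted p under 0.05 and 1 called by DESeq2, around a median log2 change of -0.0098. GGCX, the gamma-carboxylase, had 1067 ± 141 and 1059.5 ± 103 normalized counts (adjusted p = 0.978 by edgeR), and VKORC1, which recycles vitamin K, had 1640.4 ± 221 and 1564 ± 75.6 (adjusted p = 0.794 by edgeR). The block called AIFM2, a vitamin K reductase, higher (block-adjusted p = 0.0248) and NQO1, a quinone reductase, VKORC1L1 and PRRG4, a membrane Gla protein, lower (0.00498, 0.0350 and 0.0110). F7, F9, MGP and PRRG3, which encode other Gla proteins, were at 0 counts in every library, where the floor is 3 counts a library.

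Phosphatidylserine, the lipid that the ligands bind, is held inside the membrane by flippases and exposed by scramblases. ATP8A1, a flippase, fell from 76.8 ± 8.85 to 33.8 ± 5.07 normalized counts (log2 change -1.18, SE 0.22, adjusted p = 0.0276 by edgeR), the 1 call among 10 genes tested of 12. The ATP8A1 call was lost in 5 of 6 fits with a library left out, all but that without NT library 1, at adjusted p up to 0.145. XKR8, a scramblase activated by caspases, had a log2 change of 0.37 (adjusted p = 0.226 by edgeR). The block also called the scramblase ANO6 and PLSCR1 lower, at block-adjusted p of 0.0161 and 0.0207, and PLSCR3 higher, at 0.0434. At an unadjusted edgeR p under 0.05 there were 1 higher and 4 lower of the 10, where 10.7% and 11.1% of all genes tested were. The block called 1 higher and 4 lower, where 12.1% and 10.9% of all genes tested were called. Without the block, 2.29% of all genes tested were called lower. The median of the list was -0.12.

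Other phosphatidylserine receptors and bridging proteins numbered 15, of which 7 passed the filter and 0 were called, with 0 at an unadjusted p under 0.05 and 0 called by DESeq2. Their median log2 change was 0.040. TIMD4, CD300LF and TUB were at 0 counts in every library. MFGE8, a bridge to integrins, had 1027 ± 298 and 1328 ± 174 normalized counts (adjusted p = 0.372 by edgeR). LRP1, a large endocytic receptor, was called higher with the block (block-adjusted p = 0.0352).

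Among 14 genes for transcription factors and co-activators linked to the AXL promoter, FOSL1 alone was called without the block. Of all genes tested, 2.78% were called higher and 2.29% lower. FOSL1, an AP-1 subunit, rose from 2689 ± 453 to 5364 ± 915 normalized counts, a log2 change of 1.00 (SE 0.16, adjusted p = 0.0178 by edgeR), and lost its call without NT library 3 or OXA library 1 or 2, at adjusted p up to 0.0852. JUN, its AP-1 partner, had a log2 change of -0.27 (adjusted p = 0.352 by edgeR). That of YAP1 was 0.053 (adjusted p = 0.837 by edgeR). For WWTR1, the gene of TAZ, it was 0.27 (adjusted p = 0.300 by edgeR, and 0.0186 with the block). The TEAD genes, which encode the DNA-binding partners of YAP and TAZ, had log2 changes of -0.18 for TEAD1, -0.12 for TEAD2, 0.15 for TEAD3 and -0.011 for TEAD4, none of them called without the block. SP1 had 8027 ± 763 and 6284 ± 414 normalized counts (adjusted p = 0.0896 by edgeR, and 0.0109 with the block). The block also called HIF1A and EPAS1 higher and TEAD1 and SP3 lower. With the block, 4 of the 14 were called higher and 3 lower, where 12.1% and 10.9% of all genes tested were. At an unadjusted edgeR p under 0.05 there were 2 higher and 2 lower, where 10.7% and 11.1% of all genes tested were. The median over the 14 genes was 0.0015.

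The profiles of the members over the 6 libraries were also compared with 12065 genes of at least 50 normalized counts, as a description in which the points share their libraries and the group difference. The genes with the highest Pearson correlation to AXL were C4orf3 (r = 0.998), AHNAK (0.998) and PIM2 (0.997), and 318 genes exceeded 0.95. For TYRO3 these were EFNA4 (0.998), MPP2 (0.997) and MELTF (0.996). MERTK was followed most closely by NCMAP (0.989), TSC22D2 (0.988) and ADAP2 (0.987). GAS6 had 600 genes above 0.95, led by SDSL (0.999), CUEDC1 (0.998) and DDX39A (0.998), and PROS1 had SLC35A5 (0.995) and INTS7 (0.995). Among the members themselves AXL had r = 0.778 with MERTK, 0.797 with GAS6, -0.215 with TYRO3 and -0.595 with PROS1.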

How the data were processed

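RNA-seq was measured in 3 NT and 3 OXA libraries of HCT116 cells, prepared with a stranded, poly(A)-selecting kit and read as pairs. The authors deposited 1 table that pairs raw counts with a normalized signal. The submitters' processing notes name Trimmomatic 0.32, STAR 2.7.5b, RSEM 1.3.3, DESeq2 2.13 and GRCh38, and the methods give mapping with STAR and normalization with DESeq2. The program that made the counts, its annotation and its strand setting are not given in the sources used here. The deposited raw counts are whole numbers, which may be rounded RSEM estimates, and entered the tests unaltered. The authors' normalized signal is the raw count times a factor that differs between genes as well as libraries, and served only as an alternative.

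Genes were filtered with filterByExpr (minimum count 10, minimum total 15), normalized by TMM and tested with the edgeR 4.0.16 quasi-likelihood test (limma 3.58.1, R 4.3.3) and adjusted by Benjamini-Hochberg across the 13727 genes that passed; a call is an adjusted p under 0.05. Normalized counts are raw counts scaled to the TMM library sizes. PCR duplicates cannot be told apart. Gene models were from GENCODE 44 and promoters from RefSeq on GRCh38.p14, where all 5 members matched. Levels were divided by the union of a gene's exons. The unblocked edgeR steps were run on simulated counts, drawn with no link between NT and OXA libraries of one number. That run does not cover the fit with the block.

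The deviations of NT and OXA libraries of one number from their group means were alike, with correlations over genes of 0.511, 0.502 and 0.28, all over the limit of 0.1, where pairs of different numbers lay between -0.436 and 0.0832. Sample titles give the numbers without saying what they mark. A second fit took replicate number as a blocking factor, and its value is printed where a call differs. Alternatives were RLE factors, no filter on low counts, DESeq2 1.42.0, the block, the authors' factors, each library left out, a prior of 5 counts for ratios (0.5 otherwise) and the longest transcript as length.

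The rule for members uses gene symbols alone, but the group, its members, the gene lists and the tests were chosen with earlier results of these data known. The genes named are the members, every called gene of each list, genes fixed for their roles (GGCX, VKORC1, ADAM10, ADAM17, GRB2, the TEAD genes, YAP1, WWTR1, EGFR, MET, CDKN1A and MDM2) and the 3 genes most like each member. Others, such as the genes called only with the block, XKR8, MFGE8, JUN, EPHB4, CSF1R and those at 0 counts, were named after their values were seen, or for their place beside a member. Some genes that these rules select are left out here.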

Additional observations from a re-analysis of the deposited data

How the results depend on the processing

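The direction of every member's change was the same under all alternatives run, and AXL was called in each, at log2 fold changes of 0.83 to 0.94 when a library was left out. The block moved the GAS6 log2 fold change to 0.66 and made it a call, and it changed no other member's call. When a library was left out, the estimates ranged from -0.35 to -0.12 for TYRO3, 0.24 to 0.37 for MERTK, 0.35 to 0.76 for GAS6 and -0.41 to -0.15 for PROS1, with none called. The counts of genes over the whole table moved more. Higher and lower genes numbered 381 and 315 without the block, 604 and 571 with DESeq2, 1664 and 1493 with the replicate block and 241 and 200 with the authors' gene-specific factors; leaving out a library gave 66 to 623 higher and 19 to 571 lower genes, fewest without OXA library 1 and most without NT library 1. The cause was not tested.

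In the gene lists, calls in either direction numbered 0 of the TAM adaptors, 2 with DESeq2, 5 with the block and 0 to 1 with a library left out. For shedding there were 0 and, with the block, 2, and for the vitamin K cycle 0, with 1 by DESeq2 and 4 with the block. For phosphatidylserine exposure there was 1, with the block 5 and 0 to 1 with a library left out, and for the other phosphatidylserine receptors 0, with the block 1. For AXL transcription factors there was 1, with the block 7 and 0 to 1 with a library left out. For receptor tyrosine kinases there were 2, with 4 by DESeq2, 6 with the block and 1 to 6 with a library left out (6 without NT library 1). The AXL to GAS6 difference ranged from 0.12 to 0.50 with a library left out. By the longest transcript the share of AXL among the receptors was 56.1% in NT and 71.6% in OXA, and that of TYRO3 34.4% and 20.5%. With 3 libraries a group, exact permutation tests of ratios cannot go below 0.1, and MERTK, with 276 to 366 raw counts a library, was the member with the least depth.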
